A study of Mus musculus with 18 samples.

Results

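Ide (ENSMUSG00000056999.15, GRCm38.p6 chromosome 19, 37268743 to 37334544) was followed through 3 mouse gut tissues, as 1 gene of the 32285 in the deposited single-cell matrices. It was selected on its measured level, which was higher in St8sia6 knockout (KO) than in wild-type (WT) T cells of the small bowel epithelium, with heterozygotes (het) between them. Its genotype values in that tissue are therefore given as a description without a test. The small bowel lamina propria and the colon were not used in the choice and were tested, but they may come from the same mice. Per the labels, every run took cells of 1 KO, 1 het and 2 WT mice, the procedure was done 3 times, cells were enriched for the leukocyte marker CD45, and the colon preparation joined its lamina propria and its epithelium. Strain, age and sex of the mice and the part of St8sia6 that was deleted were not given in the sources used here.

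Ide encodes insulin-degrading enzyme, a zinc metallopeptidase of the M16 family that closes around short peptides such as insulin, amylin, glucagon and amyloid beta and cuts them inside its chamber. The enzyme is found mostly in the cytosol, is made in most tissues, and has been studied chiefly for insulin turnover and for amyloid beta clearance. St8sia6 encodes a sialyltransferase that adds sialic acid to glycans.

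Each tissue had 3 gene expression libraries, and KO, het and WT cells of a library were captured together and told apart by hashtag antibodies. The filters stated by the study kept 16705 epithelium, 21347 lamina propria and 21286 colon cells. Between libraries of a tissue 139, 190 and 197 cell barcodes recurred, in that order of tissues, and within a library 0 did. The hashtag of the assigned genotype led weakly in some WT sets, in 55.7% of the WT cells of lamina propria library 3 and in 84.2% and 72.5% of those of epithelium libraries 1 and 2. Cells were placed in a class when they held a molecule of its gate gene and none of the gates of the other lineages, which set aside 29.1% of epithelium, 31.2% of lamina propria and 50.8% of colon cells as having several lineages. The gates were Cd3e for T cells, Ms4a1 for B cells, Mzb1 for plasma cells, C1qa for macrophages and Epcam for epithelial cells. Genes outside the gates followed them: Cd3g reached 1834 counts per 1000000 molecules of the sum (CPM) in epithelium T cells, Jchain 51440 CPM in lamina propria plasma cells and Krt8 4042 CPM in Epcam-gated colon cells. In 2 classes the genes went partly against the name. The Mzb1 gate of the epithelium held Cd8b1 at 589 CPM and Flt3 at 165 CPM, genes of CD8 T cells and of dendritic cells, so it is called Mzb1-gated below. Lamina propria T cells carried the plasma cell transcript Igha at 6942 CPM, against 36.0 CPM in epithelium T cells.

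The targeted gene was checked in plasma cells of the lamina propria, where it was most abundant. St8sia6 measured 35.5, 44.4 and 45.2 CPM in the 3 KO libraries, 53.9, 59.2 and 57.5 CPM in het and 62.1, 75.6 and 72.4 CPM in WT. It was lower in KO than in WT there (log2 -0.80, SE 0.08, edgeR adjusted p 0.0429), in 3 of 3 libraries, and molecules of the gene remained in KO cells. With any of the 3 libraries left out the value was -0.73 to -0.84 and edgeR's adjusted p 0.0955 to 0.485. The call also ended without TMM factors (-0.75, edgeR adjusted p 0.0668) and with a gate of 2 molecules (-0.83, 0.0515), and with genotypes set by hashtag share the value was -1.35 (0.00591). In epithelium T cells it was close to the detection limit, with 2.08 CPM in KO, 1.40 CPM in het and 2.81 CPM in WT.

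Per total molecules and within each tissue, mean Ide was highest in T cell subsets and lowest in B cells and macrophages. With the TMM scaling used for the tests, plasma cells lay above T cells in the lamina propria (log2 0.33) and had 0.28 in the colon. Means over the genotype and library sums of a class were 113 ± 29.0 CPM (SD, n = 8) in lamina propria CD4 T cells, 98.6 ± 27.5 CPM (n = 9) in epithelium gamma-delta T cells and 87.9 ± 40.0 CPM (n = 7) in lamina propria gamma-delta T cells. Epithelium CD4 and CD8 T cells followed with 77.6 ± 21.8 and 76.3 ± 15.4 CPM (n = 9 each), and lamina propria CD8 T cells with 75.4 ± 39.0 CPM (n = 6). Colon gamma-delta, CD4 and CD8 T cells had 66.0 ± 16.5, 50.3 ± 27.4 and 48.4 ± 12.5 CPM (n = 9 each). Each of these neighbours in the order differed by less than the SD of either. The sums missing from the lamina propria subsets, for want of cells, were all of WT, the genotype with the least Ide in lamina propria T cells.

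Outside the T lineage, Epcam-gated cells measured 56.8 ± 21.1 CPM in the lamina propria, 54.9 ± 28.6 CPM in the epithelium and 41.6 ± 10.8 CPM in the colon (n = 9 each). Plasma cells had 46.0 ± 14.1 CPM in the lamina propria and 36.8 ± 15.1 CPM in the colon (n = 9 each), and the Mzb1-gated cells of the epithelium 56.3 ± 26.9 CPM (n = 7). Macrophages had 33.2 ± 27.2 CPM in the lamina propria (n = 9) and 21.6 ± 10.8 CPM in the colon (n = 6). B cells had the lowest levels, 30.0 ± 18.2 CPM in the lamina propria, 26.2 ± 24.0 CPM in the epithelium (n = 8) and 20.2 ± 8.36 CPM in the colon. The sums of B cells and macrophages rested on few molecules, 28 in lamina propria B cells and 19 in colon macrophages, so their order within this low group was not resolved at this depth.

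**Figure D1:**
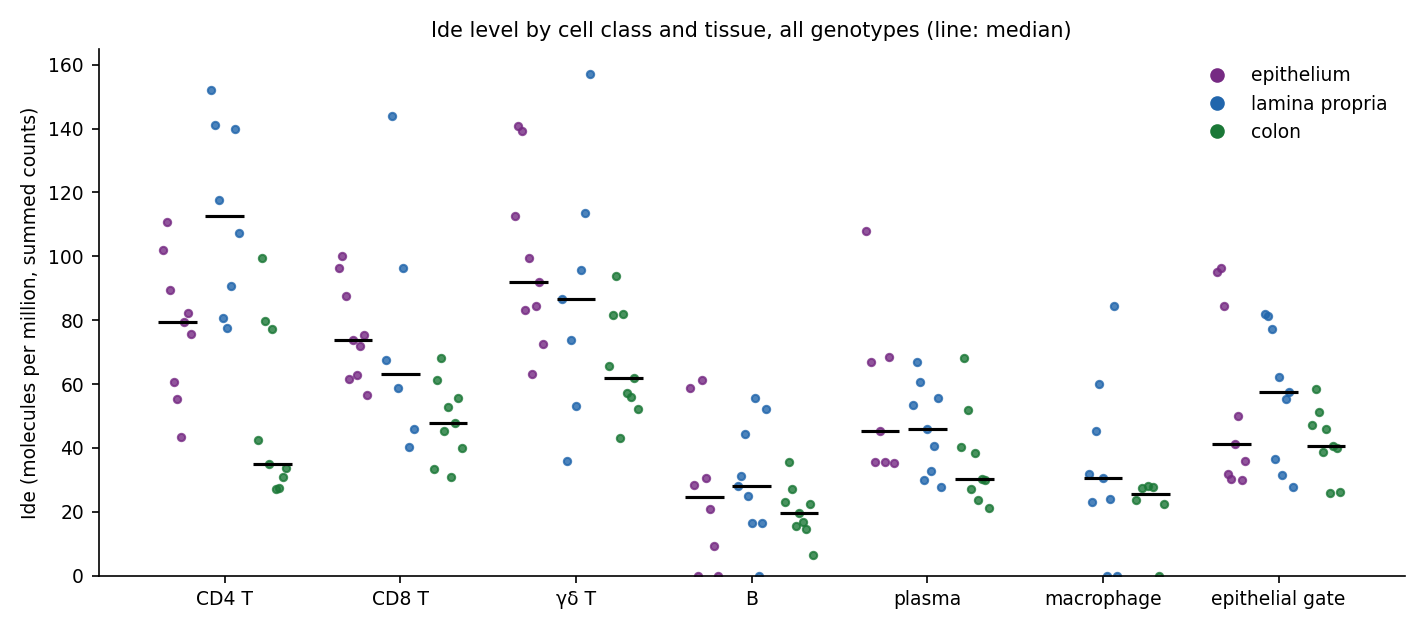
Ide level in CPM of the summed counts (vertical axis) for each cell class, with 1 point per genotype and library sum of at least 10 cells and a line at the median of each tissue. T cell subsets have the highest medians in the epithelium and the lamina propria, while in the colon the CD4 T median of 35.0 CPM lies under the 40.7 CPM of Epcam-gated cells. B cells and macrophages lie lowest, with means of 20.2 and 21.6 CPM in the colon.

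The differences between classes were tested by edgeR's quasi-likelihood test within genotype and library. B cells were lower than T cells by a log2 value of -1.36 in the colon (SE 0.13, adjusted p 3.63e-09, where 59.6% of all genes were called) and of -1.57 in the epithelium (SE 0.33, edgeR adjusted p 1.22e-05, 31.7% of genes called). Colon macrophages were lower than T cells (log2 -1.09, SE 0.34, edgeR adjusted p 0.0159, 33.6% called), a call that was lost when any of the 3 libraries was left out (edgeR adjusted p 0.0573 to 0.101). Epcam-gated cells were lower than T cells in all 3 tissues: log2 -0.63 in the epithelium (SE 0.13, edgeR adjusted p 0.000673, 74.4% called), -0.46 in the lamina propria (SE 0.14, 0.00711, 71% called) and -0.41 in the colon (SE 0.07, 8.03e-05, 80.1% called). When cells with several lineages were kept, the lamina propria value shrank to -0.03 (edgeR adjusted p 0.959).

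For plasma cells the direction against T cells turned with the scaling. With TMM factors, which discount the immunoglobulin transcripts that fill these cells, Ide was higher in plasma cells of the lamina propria (log2 0.33, SE 0.12, edgeR adjusted p 0.0281, 62.7% called) with 0.28 for the colon (edgeR adjusted p 0.0732, 48.6% called). Leaving out library 2 (0.21, edgeR adjusted p 0.288) or library 3 (0.33, 0.0663) ended the lamina propria call. Per total molecules it was lower, by log2 values of -0.85 (edgeR adjusted p 1.65e-05) and -0.60 (0.000157). The Mzb1-gated cells of the epithelium had log2 -0.28 against T cells (edgeR adjusted p 0.215, 39.4% called).

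Within T cells, 1 of 5 comparisons between subsets passed the test. Gamma-delta T cells were above CD4 T cells in the epithelium (log2 0.27, SE 0.09, edgeR adjusted p 0.0382, 21.5% called), a call lost without any of the 3 libraries (edgeR adjusted p 0.0639 to 0.196). Of 10 other settings, only 3 kept the call, and the values ran from 0.22 to 0.37. In the colon the value was 0.32 (SE 0.18, edgeR adjusted p 0.245, 29% called). CD8 against CD4 T cells gave -0.037 in the epithelium (SE 0.09, edgeR adjusted p 0.909, 9.93% called), -0.63 in the lamina propria (SE 0.31, 0.228, 10.6% called) and -0.094 in the colon (SE 0.20, 0.816, 18.6% called).

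Ide was then compared between T cell states. Epithelium T cells with a molecule of Gzmb, the cytotoxic granule protease granzyme B, had 95.6 ± 21.2 CPM and those without it 69.0 ± 16.9 CPM (SD, n = 9 each; log2 0.46, SE 0.06, edgeR adjusted p 1.57e-06, 28.3% called). The same comparison gave log2 0.11 in the lamina propria (SE 0.19, edgeR adjusted p 0.781, 12.4% called) and 0.18 in the colon (SE 0.11, 0.323, 25.3% called). Cycling T cells, those with Mki67 or Top2a, had log2 values of 0.11, 0.41 and 0.16 against other T cells in the epithelium, lamina propria and colon (edgeR adjusted p 0.355, 0.313 and 0.534, with 15.3%, 12.4% and 7.28% of genes called).

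Between tissues, colon T cells had less Ide than lamina propria T cells (57.8 ± 13.0 against 81.8 ± 23.3 CPM, n = 9 each; log2 -0.69, SE 0.13, edgeR adjusted p 0.000138, 56.9% called). CD4 T cells differed likewise between colon and lamina propria (log2 -1.04, SE 0.24, edgeR adjusted p 0.00183, 39.2% called) and between epithelium and lamina propria (-0.57, SE 0.14, 0.00247, 39.3% called). A gate of 2 molecules ended both CD4 calls (edgeR adjusted p 0.116 and 0.256), and leaving out library 2 also ended that of the epithelium (-0.51, 0.0774). Over all T cells the epithelium and the lamina propria did not separate (log2 -0.17, SE 0.10, edgeR adjusted p 0.18, 54.6% called), and without TMM factors the sign turned (0.066). The other subsets gave -0.024 in CD8 (SE 0.24, edgeR adjusted p 0.978, 19.8% called) and 0.28 in gamma-delta T cells (SE 0.26, 0.484, 20% called) for epithelium against lamina propria, and -0.38 in gamma-delta T cells for colon against lamina propria (SE 0.29, 0.303, 43.9% called). Lamina propria T cells had a median of 2505 molecules per cell and carried the plasma cell RNA given above, and epithelium and colon T cells had 4880 and 4870. The part of these differences in the result was not tested.

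By genotype, epithelium T cells held Ide at 111, 119 and 113 CPM in the KO libraries, 80.6, 86.0 and 72.4 CPM in the het libraries and 71.9, 85.4 and 63.6 CPM in the WT libraries. KO was the highest genotype in each library and its values did not overlap those of het or WT, while het lay above WT in 3 of 3 libraries by less than the spread between libraries. The means were 114 ± 4.25 CPM in KO, 79.7 ± 6.86 CPM in het and 73.6 ± 11.0 CPM in WT (SD, n = 3 each), and the fit put KO over WT at log2 0.65. Thus het lay nearer to WT than to KO. In this comparison 0.835% of all genes were called.

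The T cell subsets of the epithelium also had KO highest by mean. They are parts of the T cells whose values chose Ide, so this ranking follows in part from the choice. Gamma-delta T cells averaged 131 ± 15.8 CPM in KO, 82.9 ± 9.76 CPM in het and 81.9 ± 18.1 CPM in WT. CD8 T cells averaged 94.6 ± 6.41 CPM in KO, 68.0 ± 9.99 CPM in het and 66.1 ± 6.70 CPM in WT. CD4 T cells were the subset with het midway, at 101 ± 10.8 CPM in KO, 79.0 ± 3.29 CPM in het and 53.1 ± 8.71 CPM in WT. KO values lay above all WT values in each of these subsets, in which 0.763%, 0.354% and 1.17% of all genes were called between KO and WT in gamma-delta, CD8 and CD4 T cells.

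The share of epithelium T cells with an Ide molecule was 40.8% ± 2.75 in KO, 30.2% ± 4.28 in het and 27.6% ± 3.86 in WT. After each cell had been thinned to 1500 molecules the shares were 15.3% ± 0.64, 10.9% ± 0.95 and 10.4% ± 1.20 in KO, het and WT (SD, n = 3 each). For scale, the class with the lowest level, colon B cells, had a molecule in 6.45% ± 2.39 of cells, or 2.79% ± 1.01 after thinning (n = 9). Median depth was 5097 molecules per KO, 4852 per het and 4853 per WT T cell.

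The makeup of epithelium T cells varied between libraries. CD4 T cells were 10.6 to 13.2% of KO, 5.64 to 34.8% of het and 5.12 to 10.7% of WT T cells, and Gzmb-positive cells were 75.6 to 80.5% of KO, 77.5 to 83.5% of het and 69.9 to 77.2% of WT T cells. CD8 T cells were 32.7 to 36.1% of KO, 14.8 to 30.6% of het and 19.1 to 45.9% of WT T cells, and gamma-delta T cells 20.9 to 30.8% of KO, 20.4 to 28.3% of het and 24.2 to 42.1% of WT T cells. The KO and WT ranges overlapped in these 4 shares. Cycling cells were 14.6 to 18.0% of KO, 14.5 to 20.7% of het and 8.72 to 11.6% of WT T cells, without overlap between KO and WT. Among T cells that were not cycling Ide averaged 114 ± 9.14 CPM in KO, 78.2 ± 7.27 CPM in het and 71.7 ± 9.96 CPM in WT. Within Gzmb-positive cells Ide averaged 121 ± 3.19 CPM in KO, 84.0 ± 6.68 CPM in het and 81.6 ± 16.0 CPM in WT, and within Gzmb-negative cells 89.4 ± 6.05 CPM in KO, 63.6 ± 6.22 CPM in het and 54.0 ± 7.70 CPM in WT. Cycling cells averaged 114 ± 15.7 CPM in KO, 86.6 ± 15.5 CPM in het and 86.6 ± 21.9 CPM in WT. Among them KO lay above WT in 2 of 3 libraries, and in library 2 KO had 97.6 CPM and WT 105 CPM. KO was the highest genotype by its mean on either side of both splits, while KO and WT values overlapped among cycling cells. These groups are parts of the T cells that chose Ide, and the part of the makeup in the result was not tested.

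Epcam-gated cells of the epithelium also ranked KO highest. They held Ide at 95.04, 96.3 and 84.5 CPM in the KO libraries, 49.8, 29.9 and 36.0 CPM in the het libraries and 31.7, 30.2 and 41.1 CPM in the WT libraries. Het and WT overlapped and KO lay above both. These sums held 163 KO, 173 het and 1194 WT cells with medians of 6908, 6136.5 and 3991 molecules per cell, a difference whose part in the result was not tested, and between KO and WT 15% of all genes were called in this class.

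**Figure D2:**
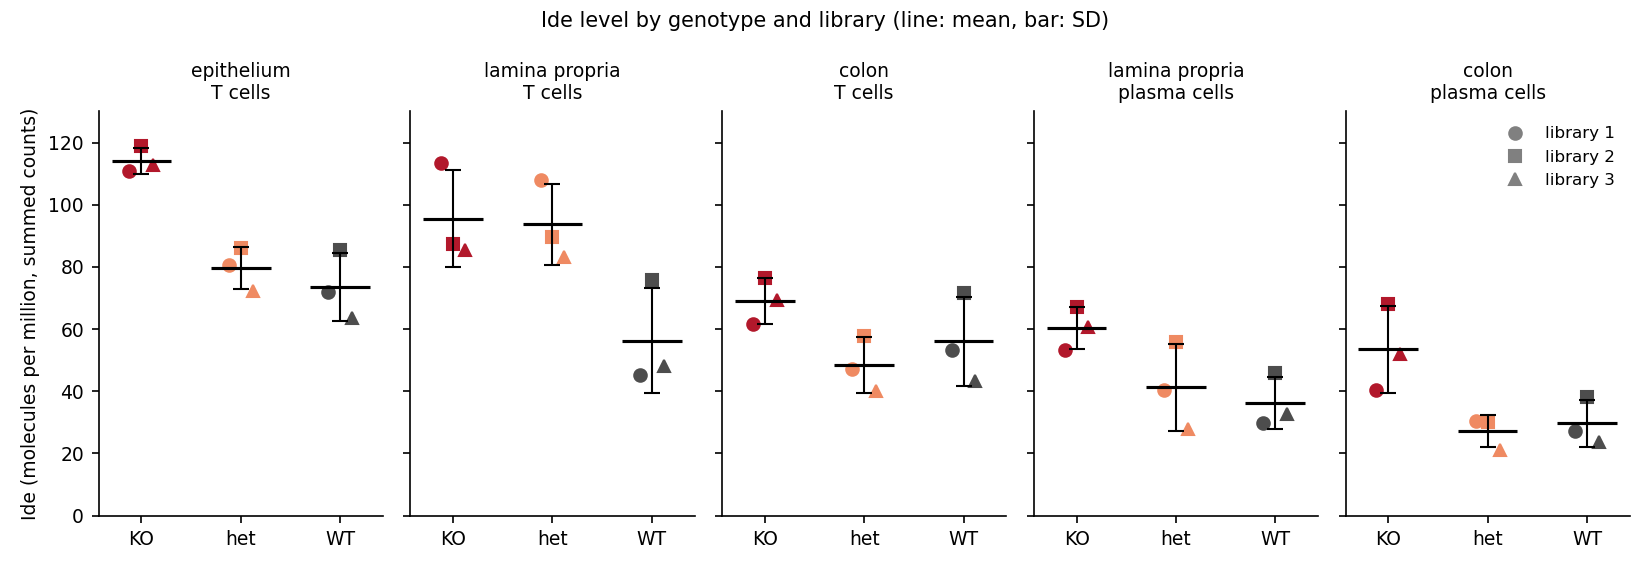
Ide level in CPM of the summed counts (vertical axis) in KO, het and WT cells, with 1 marker per library, a line at the mean and a bar of 1 SD (n = 3). KO means of 114, 95.5, 69.1, 60.3 and 53.5 CPM lie above the WT means of 73.6, 56.3, 56.1, 36.2 and 29.7 CPM in the 5 panels from left to right. KO and WT values overlap only in colon T cells among these panels.

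In the tissues that played no part in the choice of the gene, Ide was higher in KO than in WT in each of the 11 classes where it could be tested, by log2 values of 0.32 to 1.01 with a median of 0.67. By edgeR 0 of the 11 had an adjusted p under 0.05, the smallest being 0.205, and DESeq2 called 1 of them, lamina propria plasma cells. In 7 of the 11 the unadjusted p was under 0.05, a level that 2.88 to 10.6% of all genes reached in these comparisons. A filter on low counts chose the classes, and a class high in KO could enter by its KO sums. In colon CD4 T cells KO held 42.6, 99.4 and 79.6 CPM, het 27.4, 30.8 and 33.7 CPM and WT 35.0, 77.1 and 27.1 CPM. The count of 11 of 11 is therefore shaped in part by the filter, and classes that did not enter are described below. The classes of a tissue come from the same mice and T cell subsets are parts of the T cell class, so the 11 comparisons are not independent. Tissues of a run may also come from the same mice, the epithelium that chose Ide among them. The values of lamina propria and colon are therefore not a check in separate animals. Of 107 values recomputed under other settings, 107 were above 0. They refit the same 11 comparisons on largely the same cells and are not further evidence of a difference.

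In lamina propria T cells Ide measured 113, 87.3 and 85.6 CPM in the KO libraries, 108, 89.8 and 83.1 CPM in the het libraries and 45.2, 75.7 and 48.0 CPM in the WT libraries. KO and het lay together above all WT values. Against WT, KO had a log2 ratio of 0.63 (SE 0.27, p 0.0311, edgeR adjusted p 0.411, higher in 3 of 3 libraries), where 0.292% of all genes were called, and het had 0.58 (SE 0.28, p 0.0507, edgeR adjusted p 0.618, 3 of 3 libraries, 0.0769% called). The WT sums held only 38 Ide molecules, and without library 2 the KO ratio was 1.02, while without library 1 it was 0.42. CD4 T cells there averaged 137 ± 17.6 CPM in KO (n = 3), 113 ± 25.0 CPM in het (n = 3) and 79.1 ± 2.32 CPM in WT (n = 2), with a log2 ratio of KO to WT of 0.79 (SE 0.44, edgeR adjusted p 0.982, 0 of 2893 genes called).

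Plasma cells, which secrete antibody and were the largest class of the lamina propria, had the smallest unadjusted p of the 11. Ide measured 53.4, 67.0 and 60.5 CPM in the KO libraries, 40.6, 55.7 and 27.8 CPM in the het libraries and 30.0, 45.8 and 32.8 CPM in the WT libraries. KO was the highest genotype in each library and did not overlap WT. KO over WT came to log2 0.71 (SE 0.15, p 0.00152, edgeR adjusted p 0.205, 0.0474% of genes called), and DESeq2 gave 0.71 with an adjusted p of 0.00584. Without library 3, whose WT cells had a weak hashtag, it was 0.63. Het against WT gave 0.14 (SE 0.15, edgeR adjusted p 0.874, 0.0284% called).

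Colon plasma cells showed the largest of the 11 ratios. They held Ide at 40.3, 68.0 and 52.0 CPM in the KO libraries, 30.4, 30.0 and 21.2 CPM in the het libraries and 27.1, 38.3 and 23.8 CPM in the WT libraries. All KO values lay above all het and WT values. KO over WT came to log2 1.01 (SE 0.22, p 0.0016, edgeR adjusted p 0.497, 3 of 3 libraries). By edgeR 0 of 6944 genes passed the adjusted threshold, and 8.76% had an unadjusted p below 0.05. Het against WT was at -0.074 (SE 0.26, edgeR adjusted p 0.993, 0 called).

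Colon T cells had the smallest ratio. They measured 61.5, 76.5 and 69.3 CPM in the KO libraries, 47.2, 57.8 and 40.0 CPM in the het libraries and 53.2, 71.7 and 43.4 CPM in the WT libraries. KO was highest within each library, but the KO and WT ranges overlapped because library 2 was high in each genotype. KO over WT came to log2 0.32 (SE 0.13, p 0.0344, edgeR adjusted p 0.908). Of 10182 genes 0 passed edgeR's adjusted threshold and 5.43% had an unadjusted p below 0.05, and DESeq2 made 1 call. Without library 3 the ratio was 0.15. Het was below WT in 3 of 3 libraries (log2 -0.21, SE 0.15, edgeR adjusted p 0.982, 0.00982% called).

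Among the colon subsets, KO against WT gave log2 0.67 in CD4 T cells (SE 0.33, edgeR adjusted p 1, 3 of 3 libraries, 0 of 5005 genes called), 0.43 in gamma-delta T cells (SE 0.28, 1, 2 of 3 libraries, 0.357% called) and 0.39 in CD8 T cells (SE 0.33, 0.937, 2 of 3 libraries, 0.359% called). Without library 3 the values were 0.31 in CD4, 0.23 in gamma-delta and 0.01 in CD8 T cells. The gamma-delta value was 0.68 without library 2, 0.73 with a gate of 2 molecules, 0.74 with cells of several lineages kept and 0.26 with genotypes set by hashtag share.

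Colon B cells held Ide at 23.1, 35.7 and 27.1 CPM in the KO libraries, 14.7, 22.6 and 6.36 CPM in the het libraries and 15.5, 19.7 and 16.7 CPM in the WT libraries (log2 of KO to WT 0.74, SE 0.29, p 0.0214, edgeR adjusted p 0.969, 0.106% called). KO lay above all het and WT values, and het overlapped WT. Epcam-gated colon cells averaged 52.3 ± 5.75 CPM in KO, 35.7 ± 8.21 CPM in het and 36.8 ± 10.3 CPM in WT (log2 0.58, SE 0.16, p 0.00758, edgeR adjusted p 1, 0.0302% called; 0.36 without library 3), with median depths of 9206, 6546 and 4489 molecules per KO, het and WT cell. Epcam-gated lamina propria cells measured 82.0, 81.3 and 77.2 CPM in the KO libraries, 55.5, 57.4 and 27.7 CPM in the het libraries and 36.6, 62.1 and 31.6 CPM in the WT libraries (log2 0.88, SE 0.22, p 0.00319, edgeR adjusted p 0.343, 0 of 9851 genes called). In both tissues all KO values of the Epcam-gated cells lay above all WT values. How many of all genes separate in this way was not counted, here or for the classes above.

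**Figure D3:**
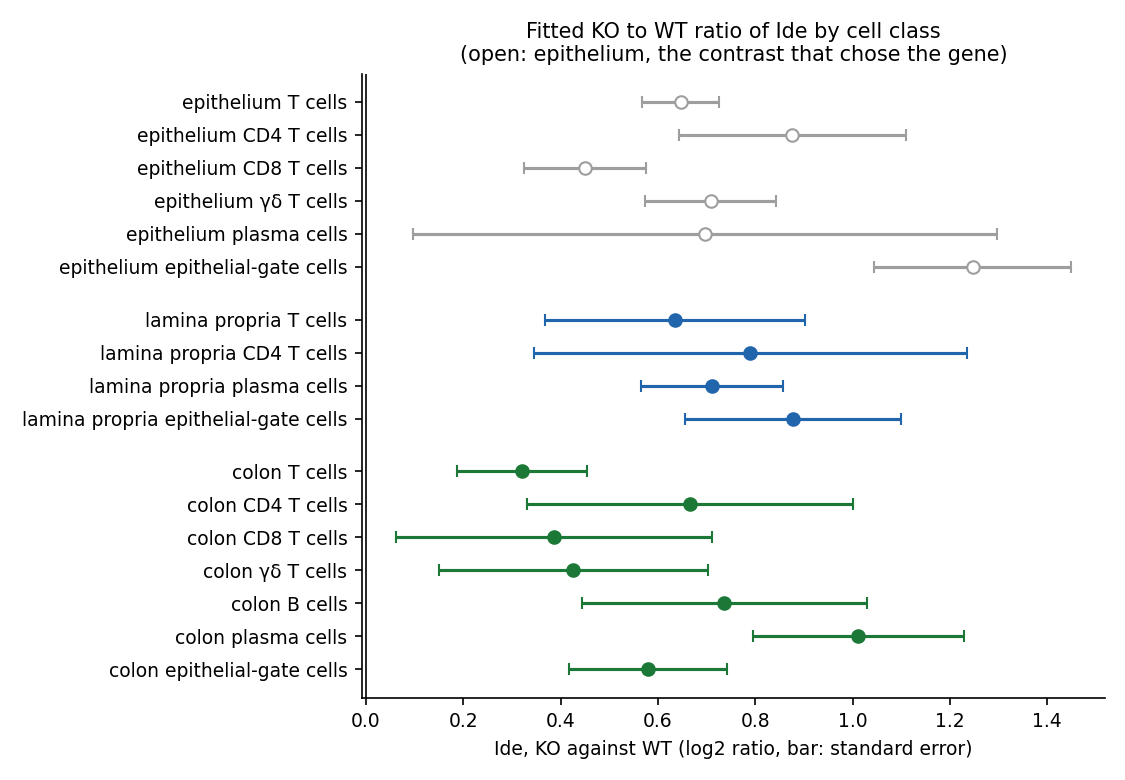
Fitted log2 ratio of KO to WT for Ide (horizontal axis) in each class, with a bar of 1 standard error on either side. Open points are the epithelium, whose contrast chose the gene, and filled points are the 11 lamina propria and colon classes, which run from 0.32 in colon T cells to 1.01 in colon plasma cells.

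Not every class could be compared. Lamina propria B cells and macrophages and colon macrophages had too few Ide molecules to enter the test. In lamina propria B cells the means were 34.6 ± 8.72 CPM in KO, 22.9 ± 26.6 CPM in het and 32.4 ± 20.6 CPM in WT, and in lamina propria macrophages 33.3 ± 11.2 CPM in KO, 36.2 ± 43.6 CPM in het and 30.2 ± 30.0 CPM in WT (SD, n = 3 each). A difference was not detectable at this depth there. Lamina propria CD8 T cells had no WT sum of at least 10 cells, and gamma-delta T cells had 1.

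Heterozygotes did not hold a fixed place between the other genotypes. Against WT, het was higher in 5 of the 11 classes, with log2 values between -0.53 and 0.58 and a median of -0.00024, and 0 unadjusted p values fell under 0.05. Colon gamma-delta T cells, with log2 -0.15 (SE 0.31, edgeR adjusted p 1, 0.0397% called), are an example below WT. Against het, KO was higher by log2 0.53 in colon T cells (SE 0.15, p 0.00381), 0.57 in lamina propria plasma cells (SE 0.15, p 0.00567) and 1.09 in colon plasma cells (SE 0.24, p 0.002), with edgeR adjusted p of 1, 0.887 and 0.439 and 0% of genes called in each. In lamina propria T cells KO against het was at 0.0497 (SE 0.22, edgeR adjusted p 0.99, 0.0462% called). The comparison of KO with het was added after the KO and WT values had been seen, and it shares the KO sums with the comparison above.

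The M16 family was then followed in T cells. Its 6 other members are the endopeptidase nardilysin (Nrd1), the mitochondrial peptidases Pitrm1, Pmpca and Pmpcb, and the related respiratory chain subunits Uqcrc1 and Uqcrc2. Among the tested members 0 passed edgeR's test between KO and WT in T cells of the epithelium, lamina propria and colon, where 0.835%, 0.292% and 0% of all genes were called, so the count of the family is near the background. Nrd1 measured 94.5 ± 10.0 CPM in KO and 97.5 ± 4.29 CPM in WT epithelium T cells (log2 -0.053), and its log2 ratio was 0.21 in the lamina propria (edgeR adjusted p 0.826) and -0.26 in the colon (0.951). The medians of the tested members were 0.047 in the epithelium (6 tested), 0.19 in the lamina propria (3 tested) and -0.15 in the colon (6 tested), beside -0.0011, -0.0032 and -0.0005 over all genes.

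The other gene lists tied to Ide are to be read against those shares and, for het against WT in T cells, against 0.902%, 0.0769% and 0.00982% of all genes called in epithelium, lamina propria and colon. Lists of this size with 0 calls are near that background. Of 11 cytosolic peptidases, which share peptide substrates with Ide, 11 were tested in the epithelium and the colon and 8 in the lamina propria, and 0 passed in KO or het against WT. The 10 genes that supply peptides for antigen presentation were tested in each tissue, and 0 passed. Tpp2, a large cytosolic peptidase, measured 126 ± 13.9 CPM in KO, 133 ± 5.91 CPM in het and 129 ± 14.8 CPM in WT epithelium T cells (log2 of KO to WT -0.028), and the immunoproteasome subunit Psmb8 measured 525 ± 36.3 CPM in KO, 500.1 ± 47.0 CPM in het and 549 ± 34.8 CPM in WT (log2 -0.070). Median log2 ratios of KO to WT were 0.067, 0.28 and 0.052 for the cytosolic peptidases in epithelium, lamina propria and colon, and 0.092, 0.25 and -0.045 for the peptide supply genes.

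Of the membrane peptidases, 1 of 2 tested rose in KO lamina propria T cells. Ece1, which cleaves big endothelin, measured 206 ± 28.8 CPM in KO, 125 ± 34.0 CPM in het and 75.8 ± 22.1 CPM in WT (SD, n = 3 each; log2 of KO to WT 1.48, SE 0.25, edgeR adjusted p 0.0193, where 0.292% of all genes were called). The Ece1 call ended without library 1 (1.69, edgeR adjusted p 0.116), without library 2 (1.09, 0.357) and with cells of several lineages kept (1.14, 0.167). In epithelium T cells 7 members were tested, 6 were below 0 and none was called, and in the colon 2 were tested and none was called.

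Known peptide substrates of Ide were mostly too scarce to test, with 3 or 4 of 15 tested per tissue. None passed between KO and WT. The chemokine Ccl4 rose in het lamina propria T cells, at 902 ± 205 CPM in het against 337 ± 101 CPM in WT (log2 1.33, SE 0.20, edgeR adjusted p 0.0186, where 0.0769% of all genes were called), and KO averaged 443 ± 62.6 CPM. The Ccl4 call ended without library 2 (1.46, edgeR adjusted p 0.187) and without library 3 (1.04, 0.0687). It also ended with genotypes set by hashtag share (1.08, edgeR adjusted p 0.18) and with cells of several lineages kept (1.58, 0.149). Of 13 tested insulin signalling genes none passed between KO and WT in any tissue. Igf1r, the receptor for insulin-like growth factors, fell in het epithelium T cells to 4.52 ± 1.45 CPM, against 13.6 ± 5.99 CPM in WT (log2 -1.47, SE 0.27, edgeR adjusted p 0.0273, where 0.902% of all genes were called). The Igf1r call ended without library 1 (-1.15, edgeR adjusted p 0.274) and without library 2 (-1.67, 0.105), and with cells of several lineages kept the value was -0.80 (0.156).

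The genes beside Ide on chromosome 19 were compared next, while the targeted gene St8sia6 lies on chromosome 2. A copy-number variant that includes Ide has been described among laboratory C57BL/6J mice. Here strain was not given in the sources used here and DNA was not measured. The 4 annotated neighbours on each side are Btaf1, Cpeb3, A330032B11Rik and March5 to the left, and Kif11, Hhex, 1700122C19Rik and Exoc6 to the right. March5, an outer mitochondrial membrane ubiquitin ligase, begins the left side at 44.3 kb from Ide, and Kif11, a mitotic spindle motor, the right side at 41.8 kb. Btaf1, a regulator of the TATA-binding protein, lies 255 kb away.

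In lamina propria and colon Btaf1 was the neighbour higher in KO in the largest share of its tested classes. It was higher in KO than in WT in 14 of 15 tested classes of lamina propria and colon (median log2 0.47), with an unadjusted p under 0.05 in 7 and an edgeR adjusted p under 0.05 in 0. In these 15 comparisons 2.88 to 10.6% of all genes had an unadjusted p under 0.05. The filter on low counts chose these classes too, as for Ide. DESeq2 called Btaf1 in lamina propria plasma cells (0.50, adjusted p 0.0432). In lamina propria plasma cells Btaf1 measured 103, 105 and 108 CPM in the KO libraries, 85.9, 97.0 and 61.1 CPM in the het libraries and 63.2, 90.6 and 64.9 CPM in the WT libraries. All KO values lay above all het and WT values (log2 of KO to WT 0.50, SE 0.14, p 0.00874, edgeR adjusted p 0.292). In colon T cells the Btaf1 ratio was 0.47 (SE 0.17, p 0.0177, edgeR adjusted p 0.84), and in epithelium T cells Btaf1 averaged 99.8 CPM in KO, 70.8 CPM in het and 71.0 CPM in WT (log2 0.49, from the contrast that chose Ide).

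The genes between Btaf1 and Ide had mixed ratios. March5 was higher in KO in 6 of 10 tested classes of lamina propria and colon, with a median log2 of 0.025, and in lamina propria plasma cells it measured 26.7, 27.3 and 27.8 CPM in KO, 25.1, 26.9 and 23.4 CPM in het and 23.2, 30.4 and 21.3 CPM in WT (log2 0.084, SE 0.10, edgeR adjusted p 0.792). Cpeb3, a translational regulator, was higher in 1 of 4. On the other side, Kif11 was higher in 6 of 9 with a median of 0.34, the transcription factor Hhex in 2 of 4 and the exocyst subunit Exoc6 in 5 of 10 with a median of -0.0041. The unadjusted p was under 0.05, in either direction, in 1 comparison of March5, 3 of Cpeb3, 3 of Kif11, 0 of Hhex and 0 of Exoc6. For these 5 genes edgeR's adjusted p was under 0.05 in 0 of the comparisons of lamina propria and colon. In the epithelium, Kif11 was higher in KO in 5 of 5 tested classes (median log2 1.11, 2 called by edgeR). Hhex was higher there in 2 of 2 (1 called) and Btaf1 in 6 of 6 (2 called). March5 was higher in 2 of 6, Cpeb3 in 0 of 1 and Exoc6 in 1 of 6, with 0 called. Of all genes, 0 to 15% were called in the epithelium classes where Ide was tested. Cycling cells were a larger share of KO than of WT epithelium T cells, as given above, and the part of this in the Kif11 values was not tested. A330032B11Rik and 1700122C19Rik had too few molecules to be tested in any class.

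Fgfbp3, a secreted binding protein for fibroblast growth factors that lies beyond Btaf1 at 349 kb from Ide, was added outside the rule of 4 neighbours a side. This gene was picked by name, so its values are not those of an unselected gene. In lamina propria plasma cells Fgfbp3 measured 7.66, 5.60 and 5.01 CPM in the KO libraries, 1.57, 3.18 and 0.27 CPM in the het libraries and 2.59, 2.34 and 0.46 CPM in the WT libraries. All KO values lay above the others (log2 of KO to WT 1.76, SE 0.47, p 0.00639, edgeR adjusted p 0.269), on 153 molecules in all. In Epcam-gated colon cells the Fgfbp3 ratio was 0.46 (SE 0.71, edgeR adjusted p 1).

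**Figure D4:**
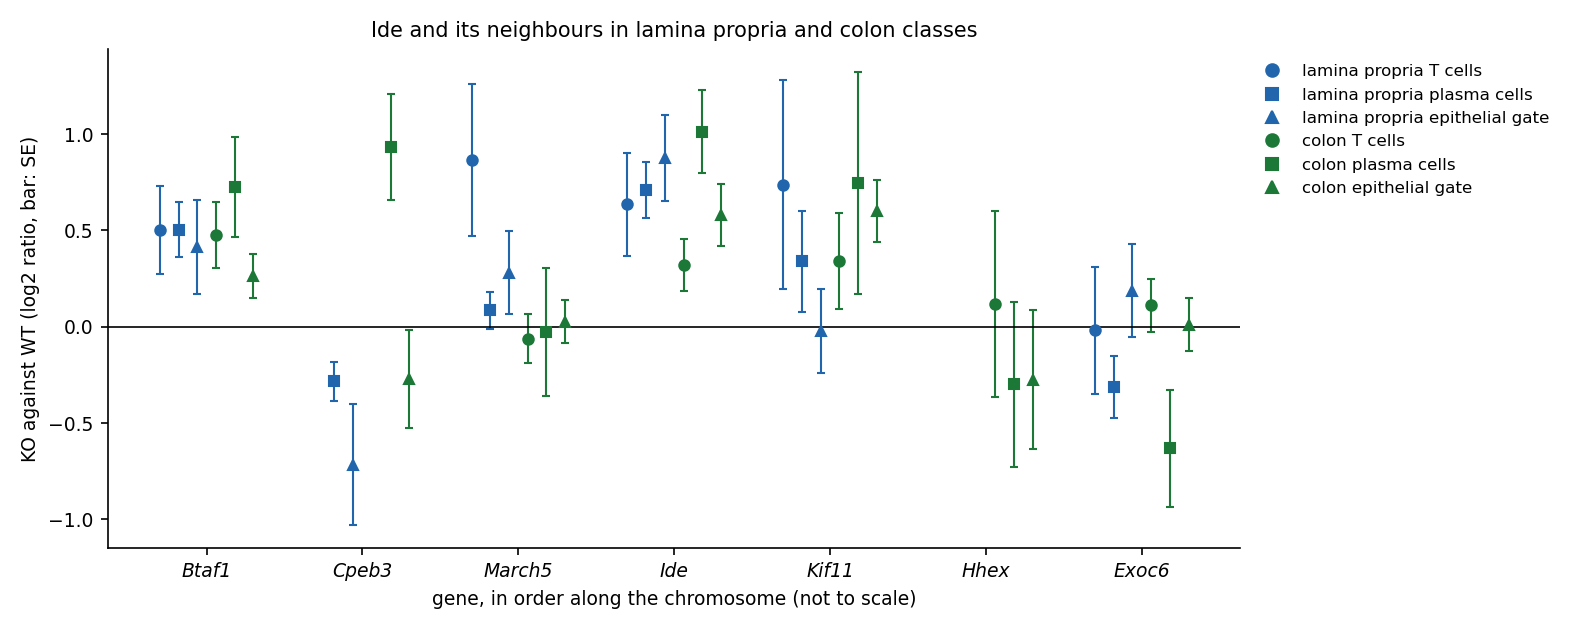
Log2 ratio of KO to WT (vertical axis, bar of 1 standard error) for Ide and the neighbours that could be tested, in order along the chromosome and not to scale, in T, plasma and Epcam-gated cells of lamina propria and colon. Ide and Btaf1 lie above 0 in all 6 classes shown, while March5 and Exoc6 scatter around 0, with lamina propria T cells at 0.87 for March5.

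Genes with a pattern over cell types most like that of Ide were ranked by Pearson's r of mean log2(CPM + 1) over 20 combinations of tissue and class, among 9193 genes. The closest were C2cd5 (r 0.91), which encodes a calcium-binding C2 domain protein, Ssbp3 (0.91), a single-stranded DNA-binding transcription cofactor, the condensin subunit Ncapd3 (0.90), the vesicle-docking GTPase Rab27a (0.90) and the noncoding RNA Lockd (0.89). These points share libraries and depth, and the correlations are a description.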

How the data were processed

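Per the labels, CD45-enriched cells of 3 tissues were captured with 5' droplet chemistry in 9 gene expression and 9 hashtag libraries. The deposited values are raw counts of molecules per gene and per hashtag in each cell, without normalization by the authors. The remaining deposited entries, recorded with the unit other, are names of genes, hashtags and barcodes. Per the submitters' processing notes Cell Ranger, Seurat and mm10 were used, and versions are not given in the sources used here.

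Cells were kept by the limits the study states, with 200 to 8000 genes, 300 to 50000 molecules and less than 20% of counts from mitochondrial genes. The 9 barcode endings per tissue were read as 3 libraries by 3 genotypes, each genotype by its highest median hashtag. T subsets held exactly 1 of Cd4, Cd8b1 and Trdc. Doublets and free RNA were not removed beyond the rule on several lineages. Within each class, counts of at least 10 cells were added up by genotype and library, which gave 3 sums per genotype. Per the labels each KO or het sum is 1 mouse and each WT sum pools 2. With the blocks described below, p-values for genotype and class measure how those differences vary from run to run. P-values between tissues measure the spread of the sums within a genotype. Depths of the T cell sums ran from 155002 to 9561597 molecules.

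The quasi-likelihood F test of edgeR 4.0.16 (R 4.3.3) was run after filterByExpr and TMM scaling. The 3 genotypes entered 1 fit with library as a block, since the genotypes of a library shared a capture. Contrasts between classes were blocked by genotype and library, and tissues were compared with genotype as covariate, unpaired. Tissues of a run may share mice, so their sums may not be independent as the p-values between tissues assume. Benjamini-Hochberg adjustment ran over all tested genes, and adjusted p under 0.05 was a call. Printed CPM are per 1000000 molecules of the sum without TMM factors, and log2 ratios use these factors. The share of all genes whose genotype values do not overlap was not counted, so statements of no overlap are descriptions. Fits were tested on simulated data. DESeq2 1.42.0 and other settings were alternatives. Named genes were Ide, St8sia6, list members past the test in T cells (otherwise those of high level), 4 neighbours a side and the 5 most similar genes. The gene and the lists were chosen with earlier results of these data known. Positions and neighbours are from the GRCm38.p6 annotation. A further comparison of T cell states is not reported here.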

Additional observations from a re-analysis of the deposited data

Results flagged for a closer look

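In 5 cases every library of a tissue moved one way and every library of another tissue the other way under the same contrast, and the difference itself was not tested. Het against WT was higher for Ide in 3 of 3 libraries of lamina propria T cells and of epithelium T cells and in 0 of 3 of colon T cells. In Gzmb-positive T cells het against WT was higher in 3 of 3 lamina propria libraries and in 0 of 3 colon libraries. In gamma-delta T cells KO against het was higher in 3 of 3 libraries of the epithelium and of the colon and in 0 of 3 of the lamina propria, where the sums held 66 KO and 61 het cells and averaged 65.4 ± 26.4 CPM in KO and 122 ± 31.5 CPM in het.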

How the results depend on the processing

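All 107 other values of Ide in KO against WT, lamina propria and colon, were above 0, as refits of the same comparisons on largely the same cells. With DESeq2 lamina propria plasma cells passed the threshold (0.71), and without the filter on low counts so did lamina propria plasma (0.73), Epcam-gated lamina propria (0.88) and colon plasma cells (0.99). Leaving out each library gave ratios of 0.42 to 1.02 in lamina propria T cells, 0.63 to 0.78 in lamina propria plasma cells, 0.15 to 0.46 in colon T cells and 0.76 to 1.15 in colon plasma cells. The number of genes called between KO and WT in lamina propria T cells, 19, was 195 without the filter, 2 when cells of several lineages were kept, 1 without the library block and 0 to 45 when a library was left out. In colon T cells, with 0, it was 1 with DESeq2, 150 without the filter, 8 with a gate of 2 molecules and 0 to 9 when a library was left out. Without the replicate block, which pairs the genotypes of a library, Ide in lamina propria T cells was at 0.64, in lamina propria plasma cells at 0.70, in colon T cells at 0.30 and in colon plasma cells at 0.98, and 0 of these calls changed. Without the block the calls ended for Ide in epithelium gamma-delta against CD4 T cells (0.23) and lamina propria plasma against T cells (0.27), and for St8sia6 (-0.79), Ece1 (1.46), Ccl4 (1.32) and Igf1r (-1.39).

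Some directions turned. Without TMM factors Ide in epithelium against lamina propria was at 0.066 in T cells and 0.12 in CD8 T cells, and in plasma against T cells at -0.85 (lamina propria) and -0.60 (colon). With cells of several lineages kept, plasma against T cells was at -0.19 in the colon and epithelium against lamina propria at -0.084 in gamma-delta T cells, which a gate of 2 molecules put at -0.38. Epithelium against lamina propria in CD8 T cells was 0.0092 with DESeq2, 0.18 without the filter and -0.23 to 0.13 when a library was left out. CD8 against CD4 T cells in the epithelium was at 0.00025 without the filter. With a library left out, Gzmb-positive against other T cells ranged from -0.10 to 0.36 in the lamina propria, and cycling against other T cells from -0.018 to 0.20 in the epithelium, with library 1 missing at each low end. The causes were not tested. The lamina propria T cell values rest on few Ide molecules, with 7 to 23 in the WT libraries.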
